A study of Mus musculus with 6 samples.

Results

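The small proline-rich proteins are encoded by the Sprr genes, which lie side by side on mouse chromosome 3. The 10 genes followed here belong to the Sprr1 and Sprr2 subfamilies: Sprr1a, Sprr1b, Sprr2a, Sprr2b, Sprr2d, Sprr2e, Sprr2f, Sprr2g, Sprr2h and Sprr2i. A member was taken to be measured where a probe on the array carried its gene name. That gave 10 probes for 9 of the 10 members, among 17785 genes tested. Sprr2i had no probe under that name, so its expression is not analysed here.

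Gene expression was measured in whole skin from the shaved back of female mice of the inbred strain C57BL/6J, aged 6 to 8 weeks. In the imiquimod group, 3 samples came from skin that had received 62.5 mg of a cream with 5% imiquimod each day for 7 days. In the vehicle group, 3 samples came from skin given the same daily amount of cream without imiquimod. Imiquimod activates a Toll-like receptor of the innate immune system, and its cream is used to give mice a skin inflammation that resembles psoriasis. No mutant, transgene or Cre was involved, and the skin was not separated into epidermis and dermis. The labels do not say whether the 3 samples of a group came from separate animals, so p-values reflect only how far these samples spread, and that spread may be technical.

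Each of the 6 scanner files, which hold 1 array each, was filed under a sample whose title names the opposite treatment. The treatment word in the file's own name matched the deposited value table instead: every array ranked 24256 probes almost as its namesake column did (Spearman's rho at least 0.9999997), against 0.943 to 0.952 for the column of the sample it was filed under. Arrays are therefore named here by the treatment word and the value table. Under the filing every sign below turns round: 0 members would then be higher and 8 lower, and the median of the members' log2 differences would be -5.75. Which record is in error cannot be told from these files.

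Small proline-rich proteins are made late in keratinocyte differentiation. Transglutaminases cross-link them to loricrin, involucrin and one another in the cornified envelope, the tough layer beneath the membrane of dead surface cells. Sprr1 and Sprr2 genes are known to be expressed more strongly in injured, irritated and inflamed epithelia, psoriatic epidermis included. They have short coding regions built of proline-rich repeats, and the Sprr2 genes are close copies of each other.

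The repeats matter for reading the arrays, because probes of 60 bases from close copies can bind transcripts of more than 1 gene. The probes that hold an exact copy of 8 bases of the repeats, GAGCCTTG, are shown with each copy in capitals. All are on the plus strand of chromosome 3 in mm9, at chr3:92121449-92121508 (Sprr2b), chr3:92156847-92156906 (Sprr2e), chr3:92222836-92222895 (Sprr2j-ps) and chr3:92237308-92237367 (Sprr2k).
Sprr2b: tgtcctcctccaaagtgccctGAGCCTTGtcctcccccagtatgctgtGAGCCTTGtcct
Sprr2e: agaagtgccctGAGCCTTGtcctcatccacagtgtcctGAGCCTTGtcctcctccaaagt
Sprr2j-ps: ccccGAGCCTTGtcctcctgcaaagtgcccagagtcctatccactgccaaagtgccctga
Sprr2k: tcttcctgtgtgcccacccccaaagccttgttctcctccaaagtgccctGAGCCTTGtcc
The Sprr2b and Sprr2k probes shared a stretch of 28 identical bases, and the Sprr2e and Sprr2b probes one of 22. Their signals may thus not be separate measurements. The probes of Sprr1a, Sprr1b, Sprr2a, Sprr2d, Sprr2f, Sprr2g and Sprr2h shared at most 10 bases in a row with any other probe of the cluster compared. The Sprr2g probe, however, holds near copies of the 8 bases. Only identical stretches between probes were compared, so binding to transcripts of other genes was not tested for any probe. The following are the first 30 bases of those on which the results turn, with the 2 probes of Sprr2a told apart by signal.
Sprr2d: ttgccaaaaactctcaatcacctttggttt
Sprr2f: atgggtcttgttccattgttcagtatgaca
Sprr1b: tcactccaatactagcccaacagaagacaa
Sprr1a: gctcctgagcctcttaacattgcccaaagt
Sprr2a, brighter probe: tacagttgatgtgccagcctgcaccaccta
Sprr2a, other probe: agaagtgaccacccaacaggtgaaggcctc

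Most of the family was far higher after imiquimod. In all, 8 members were called higher and 0 lower among the 9 measured, with an adjusted p under 0.05 from limma and Benjamini-Hochberg adjustment over all genes. At an unadjusted p under 0.05 the count of members that were lower was also 0. Across all genes 12.8% were called higher and 10.8% lower, 23.6% in all. The median log2 difference, imiquimod minus vehicle, was 5.75 over the 9 members and 0.01 over all genes. By size, 7 members were higher by more than 5 on the log2 scale, which is more than 32-fold, and so did 47 of the 17785 genes. Every imiquimod array lay above every vehicle array for 8 members, and for 25.3% of all genes. Sprr1a was the member without a call, and the size for Sprr2a depended on the probe.

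**Figure D1:**
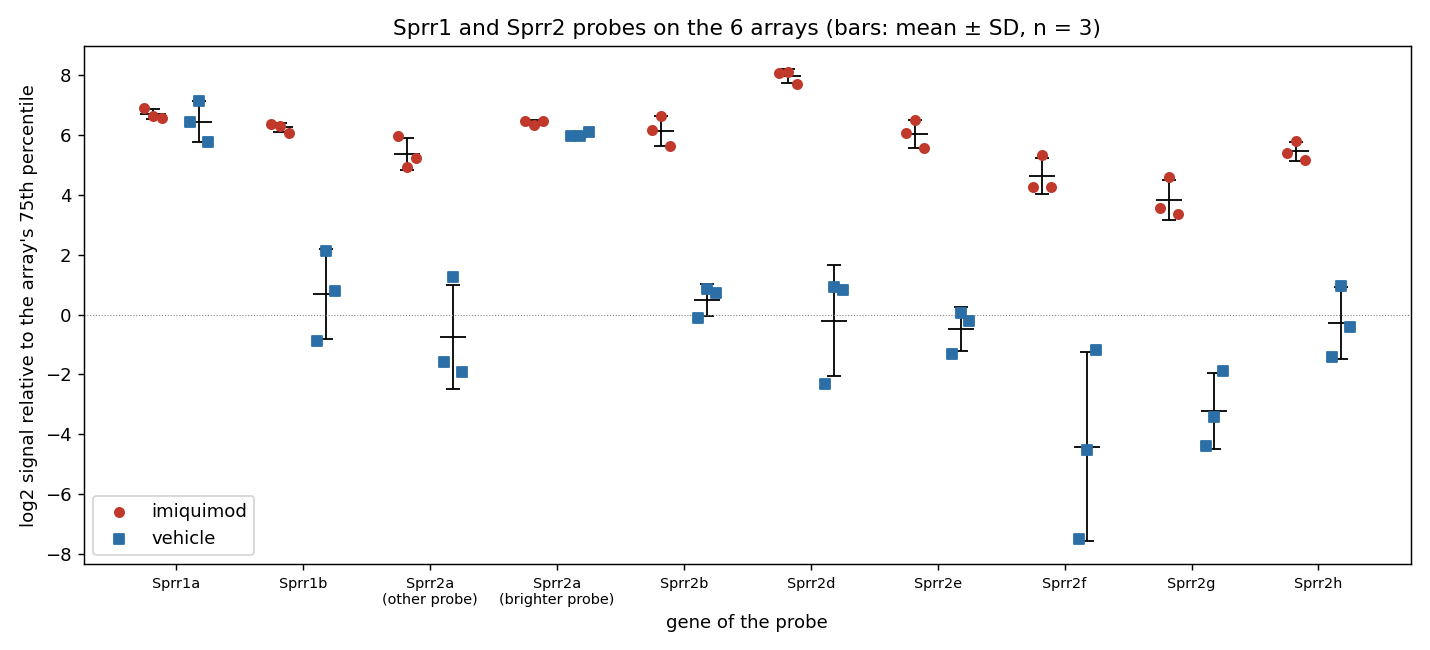
The log2 processed signal relative to the 75th percentile of its array (y axis) is plotted for each probe of the members (x axis), with the 3 imiquimod arrays as circles left of the 3 vehicle arrays as squares, and bars for the mean and SD. The groups lie wide apart for 8 of the 10 probes, lie close but apart for the brighter Sprr2a probe, and overlap for Sprr1a.

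Values below are log2 processed signals relative to the 75th percentile of the array, so that 0 is the signal of a probe brighter than 75% of probes. They are given in the order of replicates 1, 2 and 3. Levels are compared between groups for a probe and not between probes.

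Sprr2f and Sprr2d were the members with the largest differences, and which came first depended on the background correction. The level of Sprr2f was 4.28, 5.33 and 4.27 in imiquimod skin, against -7.50, -4.54 and -1.20 in vehicle skin. The imiquimod arrays lay close together and far above all vehicle arrays, which were spread over 6.30 log2 units. The log2 difference was 9.05 (SE 1.52, limma adjusted p = 0.0122). The probe was well above background on 2 of the 3 vehicle arrays, so the size of the difference rests partly on background. The Sprr2f difference was 7.32 with normexp background correction, where Sprr2d was at 8.00, and it was 7.50 without vehicle replicate 1 and 10.65 without vehicle replicate 3. The call was lost without imiquimod replicate 2, where the difference was 8.69 (limma adjusted p = 0.0504).

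Sprr2d stood at 8.07, 8.13 and 7.70 in imiquimod skin, against -2.34, 0.93 and 0.81 in vehicle skin. Imiquimod samples were uniformly high, and vehicle replicate 1 was the low one of its group. The difference was 8.17 (SE 0.89, limma adjusted p = 0.00375), or 287-fold, and without vehicle replicate 1 it was 137-fold. Sprr2g, which RefSeq lists as a transcribed pseudogene, had levels of 3.56, 4.60 and 3.36 in imiquimod skin, against -4.39, -3.43 and -1.88 in vehicle skin. The groups did not overlap, and the difference was 7.07 (SE 0.68, limma adjusted p = 0.00286), or 135-fold. The Sprr2g fold was 78.6 with normexp background correction, 90.2 without vehicle replicate 1 and 215 without vehicle replicate 3.

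The members with repeat probes moved alike, within the limit set by their shared bases. Sprr2e measured 6.07, 6.51 and 5.57 in imiquimod skin, against -1.32, 0.07 and -0.21 in vehicle skin, a difference of 6.54 (SE 0.42, limma adjusted p = 0.00151). Sprr2b measured 6.18, 6.63 and 5.64 in imiquimod skin, against -0.11, 0.85 and 0.73 in vehicle skin. Its difference was 5.66 (SE 0.35, limma adjusted p = 0.00143), or 50.6-fold. For both genes replicate 2 was the highest sample within each group, and the imiquimod and vehicle samples did not overlap.

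Sprr2h had no mm9 position in the array files. Its signal was 5.40, 5.81 and 5.18 in imiquimod skin, against -1.42, 0.97 and -0.40 in vehicle skin. Again the groups lay apart, with a difference of 5.75 (SE 0.59, limma adjusted p = 0.00325), or 53.7-fold. The fold was 36.3 without vehicle replicate 1 and 82.8 without vehicle replicate 2.

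Sprr2a was the member whose probes disagreed. The brighter probe, at chr3:92025707-92025766, represented the gene and measured 6.48, 6.33 and 6.47 in imiquimod skin, against 5.96, 5.97 and 6.10 in vehicle skin. The groups were tight and did not overlap, yet the difference was only 0.42 (SE 0.10, limma adjusted p = 0.0371), or 1.34-fold. That call of the brighter probe held in 6 of 18 settings of the analysis, the one reported included, and the difference was 0.19 after quantile normalization (limma adjusted p = 0.257) and 0.19 in the deposited value table (limma adjusted p = 0.257).

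The other Sprr2a probe lies 2449 bases upstream, at chr3:92023258-92023317. It measured 5.96, 4.92 and 5.24 in imiquimod skin, against -1.59, 1.24 and -1.91 in vehicle skin. Tested as a feature of its own, it differed by 6.13 (SE 0.85, limma adjusted p = 0.00751), a size within the range of the other Sprr2 members. The differences of the 2 probes were 5.71 log2 units apart and did not overlap between groups (exact permutation test, two-sided p = 0.1, the smallest that 3 against 3 arrays allow). RefSeq holds 3 copies of the gene, Sprr2a1, Sprr2a2 and Sprr2a3, which the array files do not separate. With the mean of both probes as the gene's value, the difference was 3.27.

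The Sprr1 pair split. Sprr1b measured 6.39, 6.31 and 6.09 in imiquimod skin, against -0.88, 2.12 and 0.80 in vehicle skin. It was high and even on the imiquimod arrays and differed by 5.58 (SE 0.72, limma adjusted p = 0.00579), or 47.8-fold. The fold was 27.9 without vehicle replicate 1 and 78.7 without vehicle replicate 2. Sprr1a measured 6.91, 6.64 and 6.57 in imiquimod skin, against 6.43, 7.14 and 5.79 in vehicle skin. Its groups overlapped, with vehicle skin holding both the highest and the lowest of the 6 samples.

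The Sprr1a difference was 0.25 (SE 0.34, 95% confidence interval -0.59 to 1.10, limma adjusted p = 0.625). Over the settings of the analysis it ranged from -0.08 to 0.60 and was called in 0 of 19. The Sprr1b difference exceeded that of Sprr1a by 5.33 log2 units, without overlap between groups (exact permutation test, two-sided p = 0.1, the smallest possible here). The probes start 46946 bases apart on the minus strand, Sprr1b at chr3:92241009-92241068 and Sprr1a at chr3:92287955-92288014. No member spot was saturated on any array, so the Sprr1a probe was not at the scanner's ceiling.

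For most probes of the members, values spread less on the imiquimod arrays than on the vehicle arrays. The brighter Sprr2a probe went the other way, with an SD of 0.082 on the imiquimod arrays and 0.075 on the vehicle arrays. The share of all genes with a smaller SD on the imiquimod arrays was not counted. Outside the members, Lor spread less on the imiquimod arrays (SD 0.06 against 0.22) and Ivl spread more (0.54 against 0.22). Over the 8 probes with a difference above 5, the SD was 0.16 to 0.67 on the imiquimod arrays and 0.52 to 3.15 on the vehicle arrays, and it was smaller on the imiquimod arrays for all 8. The SDs were close for Sprr2b (0.49 against 0.52), and the widest vehicle spread was that of Sprr2f, which was near background there. Whether dim vehicle signals account for the wider vehicle spread was not tested. The lowest imiquimod value exceeded the highest vehicle value by 3.68 to 6.77 log2 units. The 8 probes were picked for their large differences, so such a gap is partly built in. Imiquimod replicate 3 was the lowest of its group for 7 of these probes, and vehicle replicate 1 was the lowest of its group for 7. The extraction software gave vehicle replicates 2 and 3 the quality status "evaluate". Without both, vehicle replicate 1 is alone in its group, and the fit assumes that it varies like the imiquimod arrays. The median difference of the members was then 7.14 and 7 members were called higher, against 8.90% of all genes.

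Imiquimod replicate 1 shared a slide with the 3 vehicle arrays, and imiquimod replicates 2 and 3 shared another. With slide as a block, 5 members were called higher, namely Sprr2b, Sprr2d, Sprr2e, Sprr2g and Sprr2h. Among all 17785 genes, 539 were called higher and 539 lower in that fit. Sprr1b then differed by 5.71 (limma adjusted p = 0.0558) and Sprr2f by 8.70 (limma adjusted p = 0.104). Within the first slide, where 1 imiquimod array meets 3 vehicle arrays, 0 members were called by limma at an adjusted p under 0.05, and 7 higher and 1 lower among all genes. At an unadjusted p under 0.05 it counted 7 members and 9.50% of all genes higher there, with the spread taken from the vehicle arrays alone. The 7 large differences there were 5.68 to 8.70, the same as with slide as a block. The second slide held no vehicle array, so both fits take their sizes from imiquimod replicate 1 against the same 3 vehicle arrays. The sizes thus rest on 1 imiquimod array and are not separate checks. They were close to those over all arrays, but that comparison includes the same arrays, so the closeness is partly built in.

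**Figure D2:**
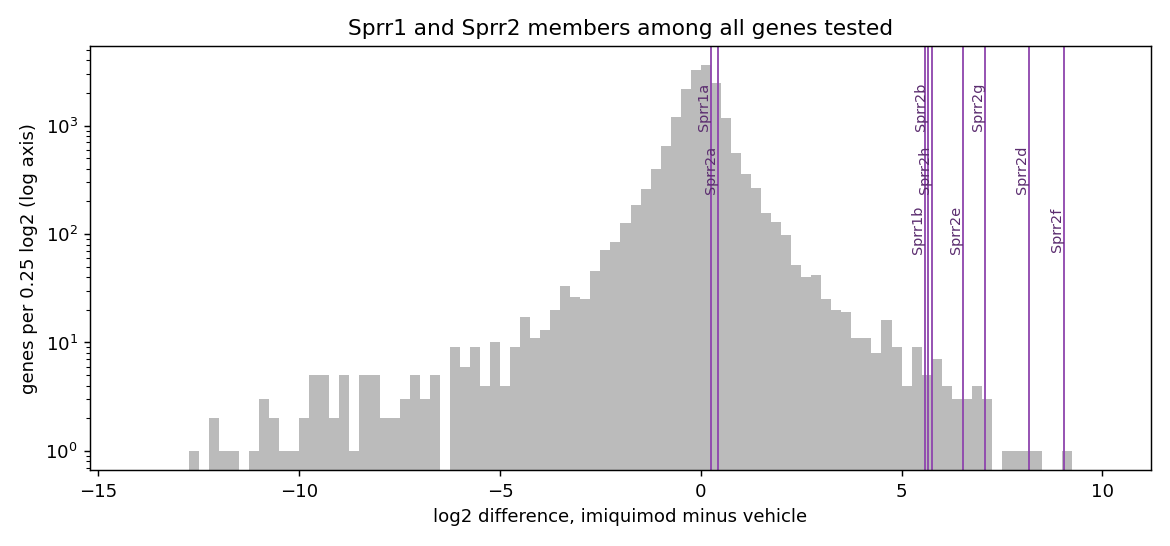
The number of genes (y axis, log scale, per 0.25 log2 units) is plotted against the log2 difference, imiquimod minus vehicle (x axis), with a line for each of the 9 members. Above 5 lie 7 members, where 47 of 17785 genes lie, and Sprr1a and Sprr2a lie in the bulk of genes.

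Of the genes beside the members, Prr9 and Sprr4 were lower after imiquimod, and Lor and Ivl, further out, were not called. Of the listed neighbours, 6 were tested, and 2 were higher, 2 lower and 2 not called. Sprr2k, a further Sprr2 gene, measured 5.05, 5.55 and 4.61 in imiquimod skin, against -0.89, 0.21 and -0.23 in vehicle skin, a difference of 5.37 (SE 0.35, limma adjusted p = 0.00156). Sprr2j-ps, a transcribed pseudogene, differed by 6.39 (SE 0.40, limma adjusted p = 0.00150). Their probes carry the repeat shown above, so these differences may share signal with those of Sprr2b and Sprr2e.

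Sprr4, a neighbouring family member whose probe starts 16240 bases beyond that of Sprr1a, went the other way. It measured -2.75, -2.28 and -2.13 in imiquimod skin, against 3.87, 3.83 and 3.79 in vehicle skin. The difference was -6.22 (SE 0.18, limma adjusted p = 0.000716), and the groups lay far apart. Prr9, a proline-rich gene on the far side of Sprr2a, measured -1.45, -1.71 and -2.11 in imiquimod skin, against 4.45, 5.82 and 0.98 in vehicle skin. It differed by -5.50 (SE 1.19, limma adjusted p = 0.0249), with vehicle replicate 3 well below the other vehicle arrays.

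Loricrin and involucrin, the envelope proteins to which Sprr proteins are cross-linked, showed no call. Lor measured 8.11, 8.22 and 8.20 in imiquimod skin, against 8.22, 8.39 and 8.66 in vehicle skin, a difference of -0.24 (limma adjusted p = 0.256). Ivl differed by -0.06 (limma adjusted p = 0.898). Sprr3, a member of the family known from the oral and oesophageal lining, was well above background on 1 imiquimod array and on 0 vehicle arrays and was not tested. Lelp1 was above background on no array. Smcp, which encodes a sperm mitochondrial protein, was above background on 0 imiquimod arrays and 2 vehicle arrays.

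**Figure D3:**
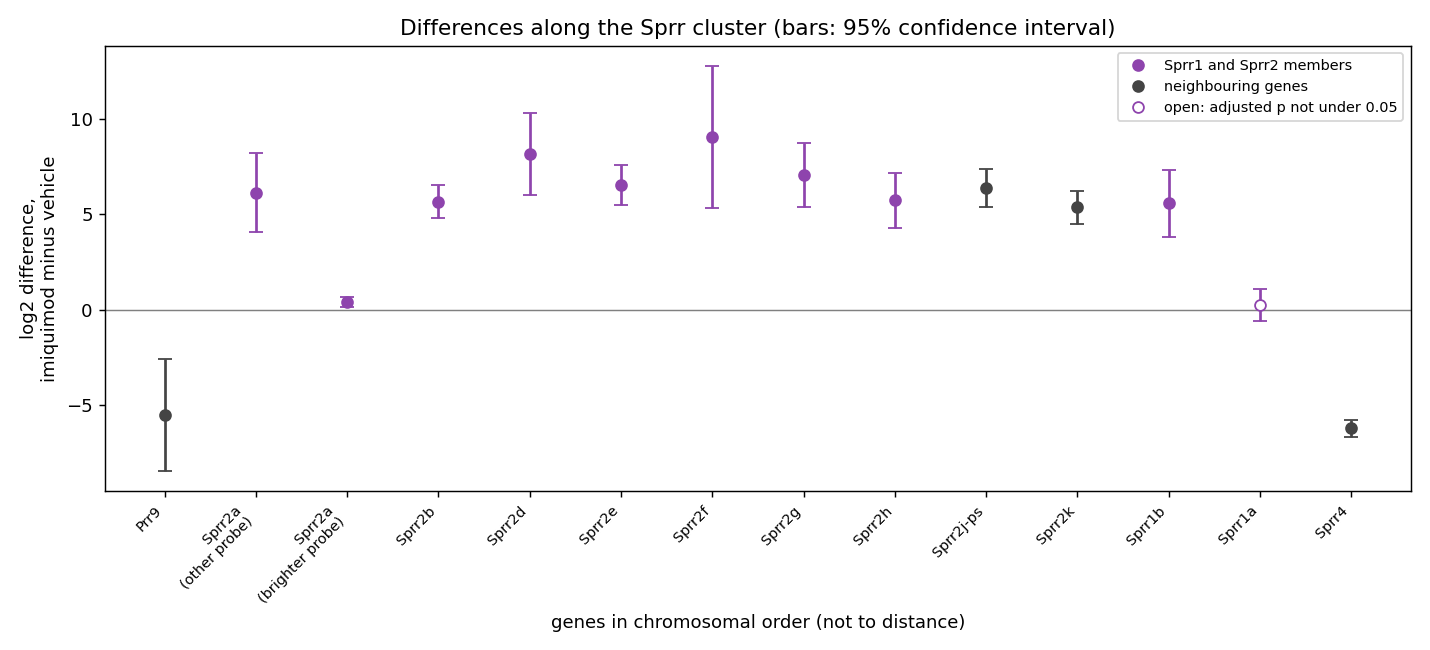
The log2 difference, imiquimod minus vehicle, with its 95% confidence interval (y axis) is plotted for the members and for Prr9, Sprr2j-ps, Sprr2k and Sprr4 in chromosomal order (x axis, not to distance). The Sprr2h probe had no mm9 position, so the place of Sprr2h in the order does not come from its probe. Lor and Ivl are not plotted. Members are purple, neighbours grey, and the open point, Sprr1a, has an adjusted p not under 0.05. Large positive differences run across the Sprr2 genes and Sprr1b, and Prr9 and Sprr4 lie below 0 on either side.

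Other genes of the cornified envelope moved in both directions. Of 49 listed, 41 were tested, and 12 were higher, 8 lower and 21 not called, with a median difference of 0.04. Among all genes 12.8% were called higher and 10.8% lower. With slide as a block the counts were 3 higher and 4 lower, beside 539 higher and 539 lower among all 17785 genes. Leaving out a single array gave 6 to 13 envelope genes higher and 5 to 11 lower. Late cornified envelope genes of the third group were among the highest. Lce3f measured 6.68, 7.39 and 7.11 in imiquimod skin, against -1.63, 1.34 and 0.47 in vehicle skin, a difference of 7.00 (SE 0.75, limma adjusted p = 0.00354). Lce3c differed by 5.36 (SE 0.53, limma adjusted p = 0.00306). S100a11, a calcium-binding protein that transglutaminases cross-link, differed by 1.12 (SE 0.13, limma adjusted p = 0.00452).

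Of the 12 Lce1 genes tested, 1 was higher and 4 were lower, and 7 were not called. The higher call depended on the probe: the gene differed by 0.86 (limma adjusted p = 0.0490), and by -0.03 at its other tested probe. Both Lce3 genes tested were higher. Of the transglutaminase genes listed, which encode the enzymes that cross-link the envelope, 2 of 3 were higher. The lowest p among those that fell belonged to Sprr4, followed by Krt2 and Flg2. Krt2 encodes a keratin of upper epidermal layers. Its probe passed the background test on 0 imiquimod arrays and 3 vehicle arrays, and its mean level was -7.28 in imiquimod skin and -2.66 in vehicle skin. It was thus at least 16.6-fold lower after imiquimod, taking as the floor on each array the signal of the dimmest probe that passed this test (limma adjusted p = 0.00143). Flg2, a filaggrin relative, measured -0.80, -1.11 and -0.95 in imiquimod skin, against 4.71, 3.78 and 5.38 in vehicle skin. It differed by -5.57 (SE 0.40, limma adjusted p = 0.00165).

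**Figure D4:**
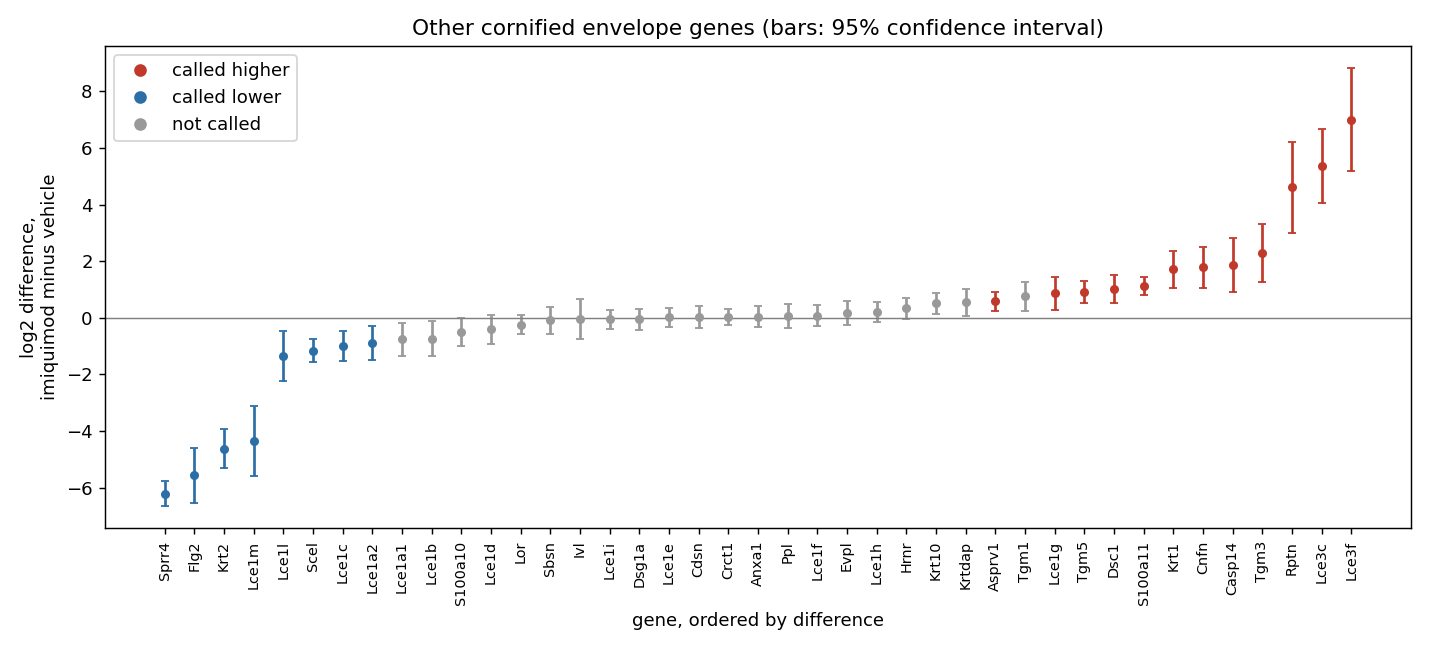
The log2 difference, imiquimod minus vehicle, with its 95% confidence interval (y axis) is plotted for the 41 tested cornified envelope genes outside the Sprr1 and Sprr2 members, ordered by difference (x axis). Red marks the 12 called higher, blue the 8 called lower and grey the 21 not called.

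Keratins that injured or hyperproliferating epidermis is known to induce were followed beside the members. Krt6b measured 7.47, 6.69 and 7.01 in imiquimod skin, against 1.06, 2.07 and 1.85 in vehicle skin, a difference of 5.40 (SE 0.33, limma adjusted p = 0.00143). Krt6a differed by 4.66 (SE 0.33, limma adjusted p = 0.00165) and Krt16 by 4.53 (SE 0.66, limma adjusted p = 0.00817). The groups lay apart for these 3. Krt17, which hair follicles also express, differed by 0.12 (SE 0.25, limma adjusted p = 0.752), with overlapping groups.

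Factors reported in human or mouse to act on Sprr promoters were followed by their transcripts. Of 22 tested, 5 were higher, 0 lower and 17 not called, with a median difference of -0.03, beside 12.8% of all genes called higher and 10.8% lower. At an unadjusted p under 0.05 limma counted 2 lower. Quantile normalization gave 2 lower calls, and slide as a block gave 1 higher. Ehf, an Ets factor of epithelia, measured 0.78, 1.43 and 1.36 in imiquimod skin, against -1.58, -0.49 and -1.29 in vehicle skin. It differed by 2.31 (SE 0.33, limma adjusted p = 0.00757). Nfe2l2, the regulator of antioxidant genes, differed by 1.09 (SE 0.15, limma adjusted p = 0.00654). Ets1 differed by 0.85 (SE 0.14, limma adjusted p = 0.0111).

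The transcript level of a factor is not its activity, and the arrays measure the level alone. Elf3, a further epithelial Ets factor, and Stat6, which carries interleukin signals, made up the 5 higher, at 2.35 (SE 0.63, limma adjusted p = 0.0442) and 0.63 (SE 0.14, limma adjusted p = 0.0248). Both are named to complete the 5, after their values were seen.

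Promoters of the members could be compared because RefSeq lists 11 for them, 3 of Sprr2a among them, in the build GRCm38.p6. The 11 include that of Sprr2i and do not include Sprr2g. Each window runs from 250 bases before the gene's start to 50 after it, and a motif was searched as letters on both strands. The AP-1 letters, TGANTCA, occurred in 8 of 11 windows, against 7.93% of 27025 promoters of all genes. The octamer letters, ATGCAAAT, occurred in 6 of 11, against 1.75%. The TATA letters, TATAAA, occurred in 8 of 11, against 14.2%. The promoters of close copies are not independent, so these counts are a description.

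The windows of Sprr2b, Sprr2d, Sprr2e, Sprr2f, Sprr2h and Sprr2i shared a layout. Each held AP-1 letters between 198 and 193 bases before the start, octamer letters between 112 and 108 bases before it, and TATA letters 29 bases before it. The first 250 bases of the Sprr2d and Sprr2e windows, of which 88% of positions in the whole windows are identical, are shown with the AP-1, octamer and TATA letters in capitals in that order. They lie on the plus strand at chr3:92338890-92339139 (Sprr2d) and chr3:92351893-92352142 (Sprr2e).
Sprr2d: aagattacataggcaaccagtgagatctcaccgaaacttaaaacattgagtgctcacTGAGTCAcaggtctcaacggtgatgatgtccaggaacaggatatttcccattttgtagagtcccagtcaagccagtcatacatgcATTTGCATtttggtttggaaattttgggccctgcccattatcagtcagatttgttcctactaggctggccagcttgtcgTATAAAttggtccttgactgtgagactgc
Sprr2e: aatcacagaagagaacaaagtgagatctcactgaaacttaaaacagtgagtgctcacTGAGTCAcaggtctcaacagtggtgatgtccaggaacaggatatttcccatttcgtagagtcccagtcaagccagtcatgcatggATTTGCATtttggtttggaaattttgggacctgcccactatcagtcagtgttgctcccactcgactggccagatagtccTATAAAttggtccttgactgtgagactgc

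Both Sprr1 promoters held AP-1 and TATA letters and no octamer. Sprr1a had 2 AP-1 matches and Sprr1b had 1. The first 250 bases of each are shown with the AP-1 and then the TATA letters in capitals, read on the minus strand, at chr3:92485882-92486131 (Sprr1a) and chr3:92438780-92439029 (Sprr1b).
Sprr1b: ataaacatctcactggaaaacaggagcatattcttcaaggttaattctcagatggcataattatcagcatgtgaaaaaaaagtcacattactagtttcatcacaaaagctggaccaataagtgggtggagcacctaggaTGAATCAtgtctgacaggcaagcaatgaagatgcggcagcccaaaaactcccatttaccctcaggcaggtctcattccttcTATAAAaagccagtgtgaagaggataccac
Sprr1a: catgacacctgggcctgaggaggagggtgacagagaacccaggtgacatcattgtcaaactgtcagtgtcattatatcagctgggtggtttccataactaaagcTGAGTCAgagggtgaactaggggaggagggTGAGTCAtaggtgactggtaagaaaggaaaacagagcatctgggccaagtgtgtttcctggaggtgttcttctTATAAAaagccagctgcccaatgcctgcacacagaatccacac

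The 3 Sprr2a windows held no AP-1, octamer or TATA letters at the starts RefSeq gives. Bases at the end of each, after the start, closely resemble bases shortly before the TATA letters in the Sprr2b window. The Sprr2a windows may thus stop short of the matching positions, and bases beyond them were not searched. The windows of Sprr2a1 and Sprr2a2 were identical at 100% of positions. Letters of an interferon response element, GAAANNGAA, occurred in 4 of 11 member windows, against 8.57% of all promoters, and lay in the Sprr2a copies and Sprr2f. The Stat letters, TTCNNNGAA, occurred in 2 of 11, against 8.47%, and the Ets letters, GGAAGT, in 1 of 11, against 24.1%.

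**Figure D5:**
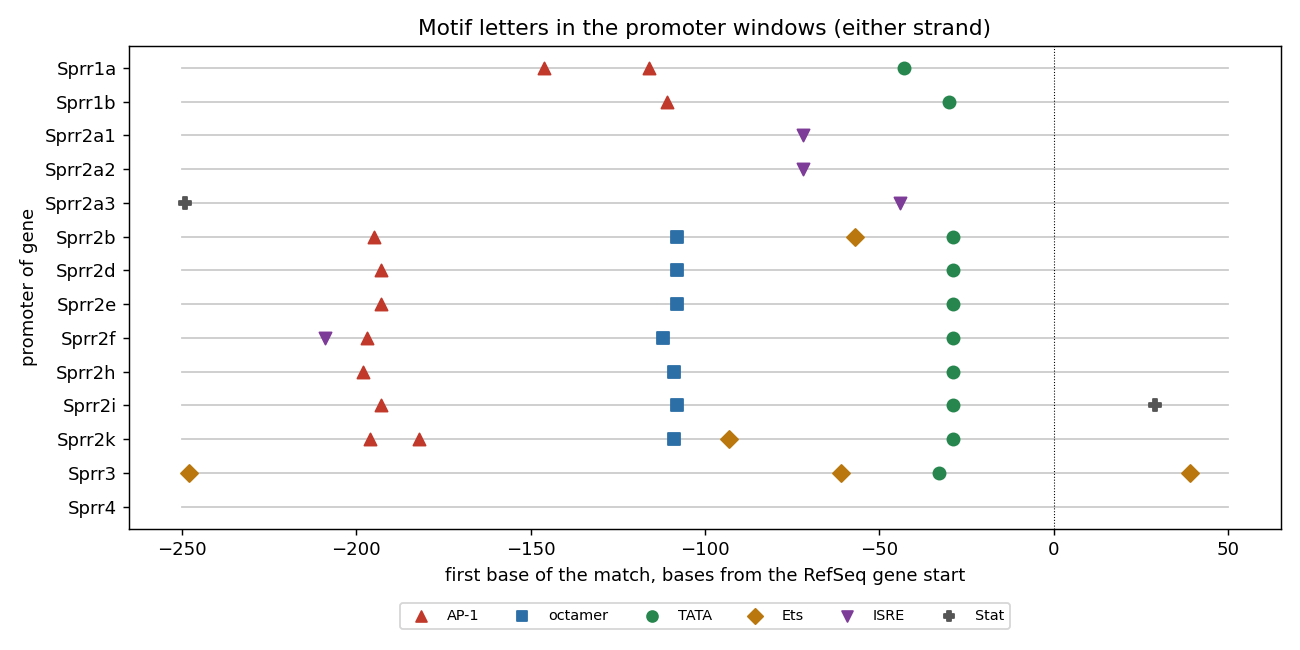
The position of each motif match on either strand (x axis, bases from the RefSeq gene start) is plotted for the promoter windows of the members with an entry and of Sprr2k, Sprr3 and Sprr4 (y axis). Triangles (AP-1), squares (octamer) and circles (TATA) line up over Sprr2b to Sprr2k, while the windows of the Sprr2a copies and Sprr4 hold none of these 3. The Sprr2a windows may be offset from those of the other Sprr2 genes.

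The genes whose profile over the 6 arrays lay nearest to the median profile of the members were picked by root mean square distance, after centring each gene on its mean. They were Sprr2j-ps (0.35 log2 units), Fpr1 (0.38), Lce3c (0.40), Sprr2k (0.41) and Treml4 (0.42). Among the members themselves, Sprr2b lay at 0.30, Sprr2e at 0.31 and Sprr2h at 0.39, while Sprr2f lay at 2.10, Sprr2a at 2.85 and Sprr1a at 2.95. The median was taken over these same members, so their distances cannot be compared with those of other genes. The probes of Sprr2j-ps and Sprr2k carry the repeat found in the Sprr2b and Sprr2e probes. Fpr1, a receptor for formylated peptides on neutrophils and other phagocytes, measured 1.84, 1.99 and 0.92 in imiquimod skin, against -6.17, -3.66 and -4.54 in vehicle skin. It differed by 6.37 (SE 0.67, limma adjusted p = 0.00338) and was well above background on 2 vehicle arrays. Treml4, a receptor of myeloid cells, was well above background on 0 vehicle arrays and was at least 43.3-fold higher in imiquimod skin on the same floor (limma adjusted p = 0.00234), with mean levels of -1.15 in imiquimod skin and -6.70 in vehicle skin.

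Markers of other cells also differed, some higher and some lower after imiquimod. The counts below stand beside 12.8% of all genes called higher and 10.8% lower. In whole skin, more cells of a type and more RNA per cell cannot be told apart. Of 7 neutrophil markers tested, 6 were higher and 0 lower, and their summed signal was 8.47 to 16.8 times the 75th percentile of the array in imiquimod skin and 0.256 to 1.60 in vehicle skin. Ngp, a granule protein of neutrophils, was above background on 0 vehicle arrays and at least 42.4-fold higher in imiquimod skin (mean levels of -1.60 in imiquimod skin and -7.42 in vehicle skin, limma adjusted p = 0.00130), and Elane, their elastase, was above background on no array. Of 13 hair follicle markers tested, 11 were lower and 0 higher, with a median difference of -8.79, also with the 4 genes at background in imiquimod skin set to their bound, and their summed signal was 3.997 to 5.61 in imiquimod skin and 125 to 1728 in vehicle skin. Krt71, a keratin of the inner root sheath, measured -5.17, -4.60 and -3.33 in imiquimod skin, where it was well above background on 2 arrays, against 8.25, 8.72 and 5.99 in vehicle skin.

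Markers of basal keratinocytes, the cells beneath those that make Sprr proteins, were measured on every array. Of 9 tested, 3 were higher, 1 lower and 5 not called, and their summed signal was 846 to 1000 in imiquimod skin and 463 to 598 in vehicle skin. The list's median difference was 0.40. Krt14, the keratin of that layer with the smallest p, differed by 2.24 (SE 0.15, limma adjusted p = 0.00157), while Krt15 was the marker that was lower, at -2.13 (SE 0.32, limma adjusted p = 0.00937). Of 8 macrophage markers 4 were higher and 0 lower, with Adgre1 at 2.73, and of 6 fibroblast markers 3 were higher and 0 lower, with Col1a1 at 0.88. Of 7 T cell markers 1 was higher, Cd5 at 1.54, and 1 lower, Lck at -1.10, with a median of -0.84 and the other 5, not called, all below 0. Of 6 adipocyte markers 1 was lower, Lep at -2.08, and of 6 skeletal muscle markers limma called 0, also 0 at an unadjusted p under 0.05. The part of any of these in the members' differences was not tested.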

How the data were processed

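Total RNA of whole skin, extracted with TRIzol and amplified to Cy3-labelled cRNA per the labels, was hybridised to 6 single-colour Agilent arrays. Each deposited scanner file gives the intensity of its spots, unlogged, background-subtracted and detrended by Agilent Feature Extraction 10.7.3.1 per the file headers (the submitters' processing notes name 9.1). Values in the table deposited for the series are log2 intensities with a median of 7.05 in each column, and its normalization is not given in the sources used here.

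Control spots and 322 outlier spots were left out, and the log2 processed signal, averaged by probe, was set relative to the 75th percentile of its array (917 to 1166 intensity units). Of 41115 probes, 27423 were well above background on at least 3 of 6 arrays, as 61.6% to 67.8% of probes were on each array. The number of arrays limits the precision. A gene was its tested probe of highest mean. Probes took RefSeq names by accession (27668), symbol (5589) or synonym (471), and the others kept the file's name. The comparison used limma 3.58.1 under R 4.3.3 (no covariates, two-sided, Benjamini-Hochberg at 0.05), and the fit was tested on simulated data. Arrays were grouped by treatment word, against their filing.

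Probe positions are those of mm9 in the array files, and no exon annotation of that build was used here. Promoters are RefSeq's. The members and gene lists were chosen with earlier results of these data known. Named are all members, all measured neighbours and stress keratins, of each pathway list up to 3 genes called in each direction by smallest p, of each cell type list the 1 of smallest p, and the 5 genes of nearest profile. Alternatives covered normalization, background correction, filters, probe choice, variance model, slide, pairing, each array left out, array quality, the value table and the filing.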

Additional observations from a re-analysis of the deposited data

How the results depend on the processing

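The 7 large member differences were at least 4.801 in every setting run under the grouping used here, except that Sprr2f was not tested with the filter on all 6 arrays, and Sprr1a was called in none of them. Slide as a block gave 5 members higher, 3 envelope genes higher and 4 lower, and 1 regulator higher. Its differences are those within the first slide, so these settings are not separate checks of size. Within the first slide, with 1 imiquimod array, limma called 0 members, 0 envelope genes and 0 regulators higher and 1 envelope gene lower, at fewer residual degrees of freedom. No filter on dim probes gave 3 regulators higher. Regulators called lower numbered 2 under quantile normalization, normexp, the variance trend with robust fit and the deposited value table, and 1 with the filter on all 6 arrays or every probe as a feature. The cause of these moves was not tested. Same-numbered replicates were not paired by the labels, and their deviations correlated at -0.09, 0.07 and 0.09 across genes. With the replicate block, 7 members were higher (Sprr2a adjusted p = 0.0962 in limma), 5 envelope genes lower and 3 regulators higher, and genes called were 1142 higher and 1072 lower, against 2278 and 1922. Slide as a block gave 539 higher and 539 lower genes, and within the first slide 7 and 1. Leaving out 1 array gave 6 to 8 members higher, a median difference of 5.36 to 6.37, 6 to 13 envelope genes higher and 5 to 11 lower, and 3 to 6 regulators higher and 0 to 1 lower. All genes called were then 916 to 2446 higher and 752 to 2257 lower. The envelope count was 6 or 7 higher without any imiquimod array or vehicle replicate 1. Without both vehicle arrays of status "evaluate" the median was 7.14, with vehicle replicate 1 alone in its group and assumed to vary like the imiquimod arrays. Grouped as filed, 0 members were higher and 8 lower, with a median of -5.75. No scaling moved the median of all genes by over 0.1. Signal near background limits the size for Sprr2f, and the shared bases limit Sprr2b and Sprr2e.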
